A study of Mus musculus with 24 samples.

Results

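Progesterone (P4) was given to ovariectomized mice that lack the progesterone receptor (PRKO), and the uterine transcripts that it changed at both sampled times were sought. The 12 arrays titled P4 or vehicle in PRKO uteri were taken, 12 of the 24 in the series. The groups were PRKO given P4 for 4 h, PRKO given vehicle for 4 h, PRKO given P4 for 40 h and PRKO given vehicle for 40 h, with 3 arrays each. The other 12 arrays hold the same 4 groups of wild-type uteri and were used as a comparison. All mice, both genotypes and both treatments, had their ovaries removed at 6 weeks of age and were injected 2 weeks later with sesame oil, either alone or carrying 1 mg of P4 per mouse. Injections came every 12 h. The 4 h groups received 1 injection and the 40 h groups received 4, and every uterus was taken 4 h after the last. The 40 h groups therefore differ from the 4 h groups in the number of doses as well as in time.

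Each RNA pool came from the uteri of 5 mice. It is not stated whether the triplicate arrays of a group were hybridized with different pools, so the errors and p values below measure the spread between arrays, which may be technical. The uterus was taken whole, so fewer cells of a type and less RNA per cell cannot be told apart in any value below. The labels name neither the strain nor the structure of the knockout allele. The median deposited signal of the 12 PRKO arrays lay between 323.4 and 342.6. For Gapdh, the ratio of the 3' control probe set to the 5' one, a sign of RNA quality, was 1.26 to 1.86 on P4 arrays and 1.34 to 1.48 on vehicle arrays (exact two-sided permutation of the arrays within each time, p = 1 after adjustment over 2 ratios, where 0.005 is the smallest possible). In wild type, 2 arrays of the 4 h groups, replicate 2 of each treatment, stood apart at 3.25 and 3.67, and the wild-type values were recomputed without them.

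P4 acts mainly through its nuclear receptor, a hormone-dependent transcription factor that binds DNA as a dimer and that the gene Pgr encodes. In the mouse uterus the receptor drives epithelial Indian hedgehog signalling to the stroma and opposes oestrogen-driven growth of the epithelium. P4 can also act by other routes. It binds the membrane progestin receptors of the Paqr family and associates with the Pgrmc proteins, its reduced metabolites bind GABA-A receptors, high doses can occupy the glucocorticoid and mineralocorticoid receptors, and steroids of this class can activate the xenobiotic receptor Nr1i2. A PRKO mouse lacks the nuclear receptor in the whole animal and not only in the uterus.

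For printing, 3 genes on which the results turn were chosen. The P4 response of Cyp26a1 had the largest called difference between the genotypes. The neighbouring genes Hoxa10 and Hoxa11 are among the 3 highest pooled PRKO values of genes whose arrays separated at both times, described below. The letters upstream of these 3 genes are printed here. Each is the 250 bases before the annotated RefSeq start, 5' to 3' on the gene's strand, in build GRCm38.p6, at chr19:37697558-37697807 (plus strand) for Cyp26a1, chr6:52240855-52241104 (minus strand) for Hoxa10 and chr6:52245811-52246060 (minus strand) for Hoxa11. Capitals mark the half-site of steroid receptors, AGAACA or its reverse complement TGTTCT.
Cyp26a1: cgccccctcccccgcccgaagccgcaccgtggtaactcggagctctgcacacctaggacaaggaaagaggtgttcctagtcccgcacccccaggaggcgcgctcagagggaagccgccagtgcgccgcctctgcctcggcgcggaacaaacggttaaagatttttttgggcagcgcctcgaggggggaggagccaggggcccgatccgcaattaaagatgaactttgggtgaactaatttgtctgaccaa
Hoxa10: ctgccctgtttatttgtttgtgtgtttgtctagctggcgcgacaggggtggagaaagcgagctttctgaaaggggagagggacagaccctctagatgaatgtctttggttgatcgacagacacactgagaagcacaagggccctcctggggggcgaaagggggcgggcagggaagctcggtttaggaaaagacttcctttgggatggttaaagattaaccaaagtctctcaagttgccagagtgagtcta
Hoxa11: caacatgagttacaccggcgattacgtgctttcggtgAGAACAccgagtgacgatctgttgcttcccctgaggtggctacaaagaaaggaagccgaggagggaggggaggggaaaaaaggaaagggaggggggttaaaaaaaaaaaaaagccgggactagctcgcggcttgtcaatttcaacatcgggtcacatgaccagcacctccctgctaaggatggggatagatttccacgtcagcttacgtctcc
The half-site stands once in the Hoxa11 window, at 213 bases before the start, and its letters do not occur in the other two. Of the 25 genes named below for a difference between the genotypes, 21 had an upstream window in the table used and 5 of these (23.8%) held the half-site. The same letters occur in 5284 of 32851 windows of this length (16.1%). The full palindrome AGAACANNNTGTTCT occurs in 3 of the 32851 (0.00913%). These are matches of letters and not measured binding.

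The targeted gene was read first. Its only probe set gave a signal of 114, 120 and 112 on P4 arrays of PRKO uteri at 4 h, against 121, 130.2 and 126 on vehicle arrays. At 40 h it gave 126, 112 and 110.2 on P4 arrays, against 120, 139 and 130 on vehicle arrays. The groups separate at 4 h and overlap at 40 h. The mean P4 effect of both times was -0.11 ± 0.06 (log2 fold change ± standard error, 6 arrays against 6), with an adjusted p of 0.944. In wild-type uteri the same probe set read 103 to 169 over the 6 P4 arrays and 128 to 157 over the 6 vehicle arrays. Over both times these ranges overlap the PRKO values. Group by group, the wild-type arrays lay above the PRKO arrays on vehicle at 4 h (140.1, 149 and 145) and on P4 at 40 h (156, 169 and 144). The genotypes overlapped on P4 at 4 h and on vehicle at 40 h. The probe set is dim, and a genotype difference in its level was not tested. Where its probes lie within the gene, and whether the knockout removes that stretch, was not analysed here.

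No transcript was called in PRKO uteri. The effect of P4 pooled over both times, the mean of the log2 fold changes at 4 h and 40 h, passed an adjusted p of 0.05 for 0 of 12422 probe sets in limma (0%), and the smallest adjusted p was 0.944. Of the alternatives tried, only a fit with an estimated weight for every array (0.243 to 7.24) called any, 293 probe sets, 79 higher and 214 lower. At an unadjusted p under 0.05 there were 572 probe sets (4.60%), 138 higher (1.11%) and 434 lower (3.49%) with P4, where 621.1 would be expected with no effect at all. Taken singly, 4 h gave 0 called and 236 at the unadjusted level (1.90%), and 40 h gave 0 called and 831 (6.69%), with smallest adjusted p values of 1 and 0.551. At 40 h the smallest adjusted p (limma) was 0.0614 with arrays blocked by replicate number and 0.0576 with a weight per time. Neither called any. Asking for an effect at both times, with the larger of the 2 p values, gave 0 called and 14 at the unadjusted level (0.113%). The time difference of the effect, 40 h minus 4 h, gave 0 called and 397 at the unadjusted level (3.20%).

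The arrays put bounds on what was missed. The median standard error of the pooled effect was 0.0722 on the log2 scale, and the median 95% interval reached 0.150 to either side. For 12108 probe sets (97.5%) the whole interval lay within 0.5 of 0, and for 12386 (99.7%) within 1. In simulated arrays with the same group sizes and 12422 probe sets, the pooled test found 58.5% of the probe sets shifted by log2 0.3, 92.4% of those shifted by 0.5 and 99.3% of those shifted by 1. The test of both times together found 6.9%, 57.9% and 96% of the same probe sets. Each run shifted 200 probe sets, in equal parts by 0.3, 0.5, 1 and 2, with noise independent between probe sets. The simulated noise of a probe set had the same spread on every array. The measured spread was wider at 4 h (median SD 0.111 to 0.147) than at 40 h (0.0767 to 0.0974). The larger shifts ease the adjusted threshold for the smaller ones, so the rates would be lower where few probe sets change. An offset of 32 was added before log2, so effects on dim probe sets are compressed. The same fit called 163 probe sets in wild-type uteri (1.31%), 84 higher (0.676%) and 79 lower (0.636%) with P4.

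Separation of the arrays was also counted. All 3 P4 arrays lay above all 3 vehicle arrays at both times for 13 probe sets in PRKO uteri (0.105%) and below for 66 (0.531%). In wild-type uteri the counts were 71 (0.572%) and 83 (0.668%). At a single time the PRKO arrays separated more often, with 202 probe sets above (1.63%) and 334 below (2.69%) at 4 h, and 731 above (5.88%) and 2043 below (16.4%) at 40 h. Of the PRKO probe sets separated in this way, 13 higher and 39 lower named a single gene with a mean signal of at least 100, and the 10 largest effects in each direction are described next. None passed the test, and their adjusted p was 0.944. Over all probe sets the pooled effect in PRKO uteri ran from -0.51 to 1.23, so larger effects lay among those that did not meet these conditions.

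Among these genes the highest pooled value belonged to Hoxa10, a homeobox transcription factor of the uterine stroma. Its signal was 1737, 1596 and 1834 on P4 arrays at 4 h, against 1563, 949.7 and 1097 on vehicle arrays, and 2043, 1952 and 1979 on P4 arrays at 40 h, against 1919.8, 1520.3 and 1400.3 on vehicle arrays. Every P4 array lay above every vehicle array of its time, and the vehicle array nearest to them was replicate 1 at both times. The pooled effect was 0.42 ± 0.14 in PRKO uteri (0.53 at 4 h and 0.31 at 40 h) and 0.40 ± 0.14 in wild type, a genotype difference of 0.02 ± 0.19.

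Hoxa11, its neighbour in the HoxA cluster, had a signal of 1834, 2031 and 2062 on P4 arrays at 4 h, against 1500.2, 1729.6 and 1747.5 on vehicle arrays. At 40 h it was 1567, 1820 and 1993 on P4 arrays, against 1383.5, 1361 and 1376 on vehicle arrays. Its pooled effect was 0.31 ± 0.10 in PRKO uteri and 0.58 ± 0.10 in wild type, where it was called. Hoxa11os, the antisense transcript of that locus, gave 0.22 ± 0.09 in PRKO and 0.42 ± 0.09 in wild-type uteri. Its second probe set gave 0.04 ± 0.09 in PRKO uteri.

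Asl, the argininosuccinate lyase of the urea cycle and of arginine synthesis, had 278, 310.5 and 272 on P4 arrays at 4 h, against 239.8, 252 and 267 on vehicle arrays. At 40 h it had 292, 317 and 294 on P4 arrays, against 230.4, 181 and 215 on vehicle arrays. The effect was 0.32 ± 0.07 in PRKO and 0.58 ± 0.07 in wild-type uteri, but a second probe set for Asl gave -0.08 ± 0.09 in PRKO uteri, so the 2 disagree. The remaining genes of the 10 were BC031181 (0.24), the splicing factor Srsf2 (0.20), the DNA repair endonuclease Apex1 (0.17), the cytochrome oxidase assembly factor Cox16 (0.16), the Egr co-repressor Nab1 (0.13) and the mitochondrial ribosomal protein Mrpl41 (0.12). Their wild-type values ran from -0.14 (Nab1) to 0.14 (Srsf2).

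On the lower side every pooled value was within 0.26 of 0. Lage3, a subunit of the tRNA-modifying KEOPS complex, read 485, 633 and 615 on P4 arrays at 4 h, against 654, 752 and 648 on vehicle arrays. At 40 h it read 650.4, 559 and 756 on P4 arrays, against 784, 819 and 765 on vehicle arrays. Its pooled effect was -0.25 ± 0.09, but its other 2 probe sets gave 0.18 and -0.06. Il15ra, the alpha chain of the interleukin 15 receptor, read 1196, 1294 and 1289 on P4 arrays at 4 h, against 1314, 1374 and 1310.5 on vehicle arrays. At 40 h the gap was wider, with 1024, 927 and 1107 on P4 arrays, against 1351, 1310.3 and 1314 on vehicle arrays. Its pooled effect was -0.23 ± 0.07.

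The other low values were those of the Ras-like protein Rasl11b (-0.23), the paraoxonase Pon1 (-0.23), the glycosyltransferase B3galnt2 (-0.21) and the ubiquitin ligase component Dtl (-0.21). With them stood the ubiquitin-conjugating enzyme Cdc34 (-0.20, against 0.07 at its second probe set), nonagouti, symbol a (-0.19), the testis gene Theg (-0.18) and the growth factor binding protein Igfbp1 (-0.18, against -0.05 at its second probe set). In wild-type uteri these 10 genes ran from -0.12 (Rasl11b) to 0.26 (Lage3), and for none of the 20 genes was the genotype difference called. Scrg1, chosen after its values were seen, gave -0.25 ± 0.05 on a signal of 64 to 78 on the P4 arrays, below the minimum used for the 10.

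The known P4-responsive genes of the uterus were read next. Of a list of 39 receptor targets 34 were measured, and 0 were called in PRKO uteri. In the same fit 12 were called in wild type, 11 higher and 1 lower. The median pooled effect of the 34 was 0.01 in PRKO and 0.23 in wild-type uteri. Over all 12422 probe sets it was -0.02 in PRKO and 0.00 in wild-type uteri. By time, the PRKO median of the 34 was 0.07 at 4 h and -0.05 at 40 h, beside -0.004 and -0.04 for all probe sets. Their mean log2 signal at 4 h was 9.3101 to 9.3985 on P4 arrays of PRKO uteri, against 9.2074 to 9.3098 on vehicle arrays. These ranges nearly meet, and those at 40 h overlapped. At an unadjusted p under 0.05, 4 of the 34 were higher with P4 in PRKO uteri (Hoxa10, Hoxa11, Gli1 and the co-activator Ncoa1) and 1 was lower (Ihh), where 1.11% and 3.49% of all probe sets were. For 28 of the 34 the whole 95% interval in PRKO uteri lay within 0.5 of 0, and for all 34 within 1. The list was compiled from general knowledge of the receptor with earlier results of these arrays known.

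Cyp26a1, which degrades retinoic acid, showed the largest difference among the probe sets whose genotype difference was called. Its signal on the P4 arrays was 111, 106 and 109 in PRKO uteri at 4 h, against 162, 117 and 109 on the vehicle arrays. At 40 h it was 115, 130.03 and 133 on P4 arrays of PRKO uteri, against 130.3, 154 and 162 on vehicle arrays. No PRKO array exceeded 162, whereas the wild-type P4 arrays read 1212, 1171 and 725 at 4 h, against 98, 103 and 89 on wild-type vehicle arrays. At 40 h the wild-type P4 arrays read 137, 121 and 121, against 120.1, 199 and 175 on vehicle arrays. The pooled effect was -0.19 ± 0.11 in PRKO and 1.36 ± 0.11 in wild-type uteri, a genotype difference of -1.55 ± 0.16 (limma, adjusted p = 3.49e-05) that rests on the 4 h arrays.

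Acot7, an acyl-CoA thioesterase, differed at both times. Its signal in PRKO uteri was 474, 449.6 and 451 on P4 arrays at 4 h, against 508, 478 and 468 on vehicle arrays, and 505, 475 and 463 on P4 arrays at 40 h, against 479, 454 and 448 on vehicle arrays. The wild-type P4 arrays read 1506, 1294 and 1097 at 4 h, against 583, 409.7 and 784 on vehicle arrays, and 2132, 1792 and 2031 at 40 h, against 800.2, 549 and 476 on vehicle arrays. All 12 PRKO arrays lay within the range of the wild-type vehicle arrays, whatever the treatment. The pooled effect was -0.01 ± 0.12 in PRKO and 1.40 ± 0.12 in wild-type uteri.

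Car2, a carbonic anhydrase, ran the other way. Its signal in PRKO uteri was 1124, 1782 and 1190.3 on P4 arrays at 4 h, against 1126, 1435 and 1463 on vehicle arrays, and 1215, 1240.1 and 1295 on P4 arrays at 40 h, against 1200.4, 1305 and 1278 on vehicle arrays. In wild type the 6 P4 arrays lay between 651 and 829 and the 6 vehicle arrays between 1194 and 1702. The pooled effect was -0.00 ± 0.10 in PRKO and -0.95 ± 0.10 in wild-type uteri.

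**Figure D1:**
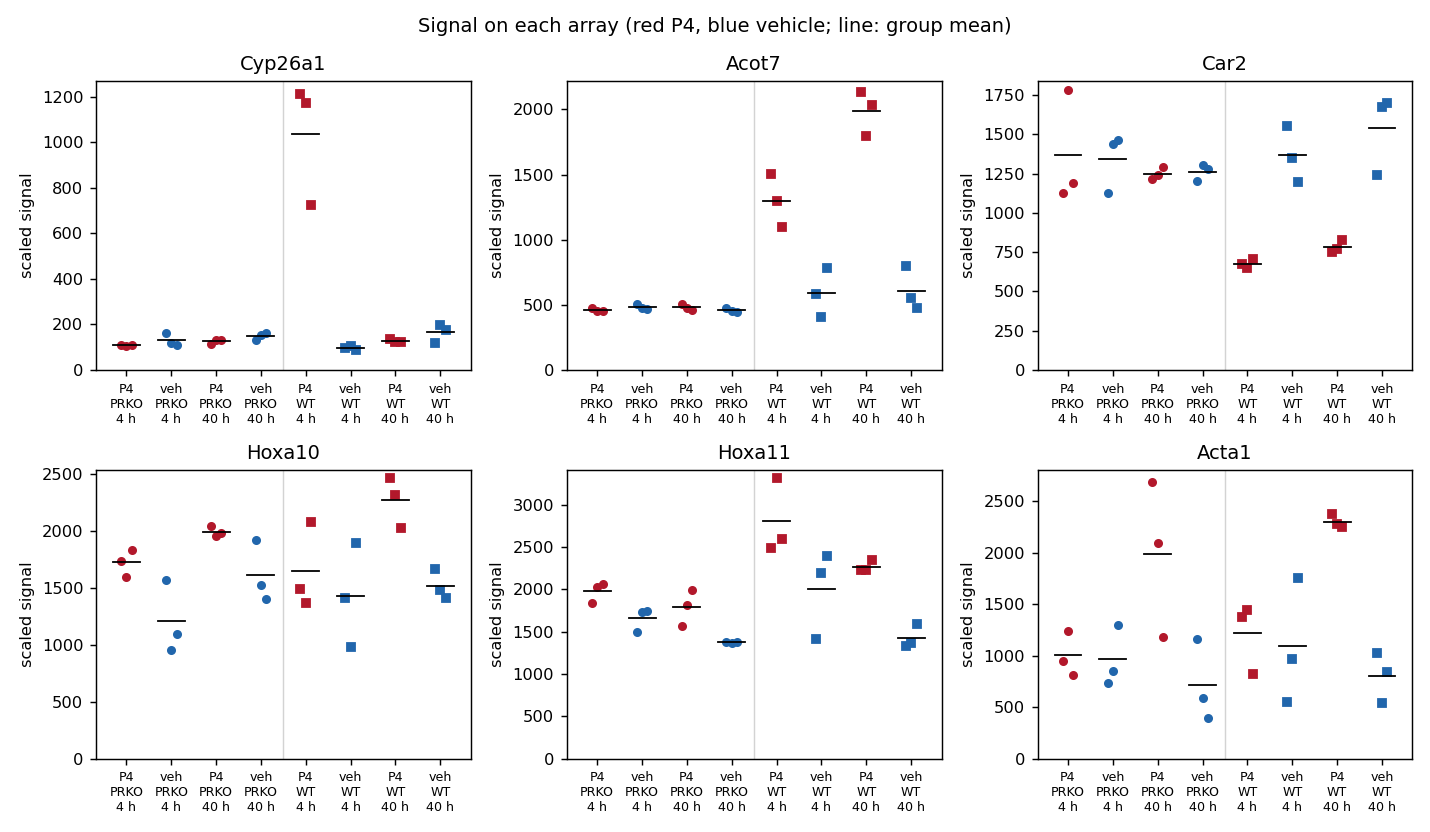
Scaled signal (linear axis from 0) of 6 genes on each of the 24 arrays, by genotype, treatment and time; each point is an array, red for P4 and blue for vehicle, and the black line is the mean of 3 arrays. Cyp26a1, Acot7 and Car2 separate by treatment in wild-type uteri (WT, at 4 h for Cyp26a1) while the 2 treatments overlap in PRKO uteri; for Hoxa10, Hoxa11 and, at 40 h, Acta1 the P4 arrays of PRKO uteri stand above vehicle (veh), with no adjusted p below 0.551.

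The test of the genotype difference, the pooled effect in PRKO minus that in wild type, called 28 of 12422 probe sets (0.225%), 9 higher (0.0725%) and 19 lower (0.153%), of which 25 named a single gene. Leaving out 1 array at a time gave between 8 and 54 calls. These 25 are named for their call, a choice made after their values were seen. Of the 17 with a negative difference, all had a positive effect in wild type, led by Cyp26a1, Acot7 and the sialic acid lyase Npl (-0.00 ± 0.18 in PRKO, 1.34 ± 0.18 in wild type). They include Spink1, a trypsin inhibitor (-0.02 and 0.84), Acod1, which makes itaconate (-0.04 and 0.76), the innate immune adaptor Myd88 (-0.02 and 0.77), the glucose transporter Slc2a3 (-0.05 and 0.63) and the chloride transporter Clcn5 (0.07 and 0.71), with the PRKO value first in each pair. The others were Caprin2, the glutathione cycle enzyme Ggct, the homeodomain protein Hopx, the alcohol dehydrogenase Adh5, Cdca7, the exonuclease Exo1, Btg4, the myosin light chain Mylpf and Ihh.

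Ihh encodes Indian hedgehog, the epithelial signal that the receptor induces. In PRKO uteri it read 738, 770.5 and 911 on P4 arrays at 4 h, against 818, 866 and 872 on vehicle arrays. At 40 h it read 686, 650.5 and 874.2 on P4 arrays, against 879, 877 and 874.4 on vehicle arrays. The groups overlap at 4 h, and at 40 h the highest P4 array lies just under the lowest vehicle array. Its pooled effect was -0.17 ± 0.08 in PRKO (adjusted p = 0.944) and 0.39 ± 0.08 in wild-type uteri, and the difference of -0.56 ± 0.11 was called (limma, adjusted p = 0.0348). The hedgehog receptor and target Ptch1, from the same pathway, gave 0.30 ± 0.16 in PRKO and 0.25 ± 0.16 in wild-type uteri, with 0.06 at its second probe set in PRKO. Gli1, the transcription factor that hedgehog signalling induces, gave 0.20 ± 0.09 and 0.26 ± 0.09. Of 12 measured genes of the pathway, 1 was higher and 1 lower in PRKO uteri at an unadjusted p under 0.05.

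The 8 genes with a positive difference all had a negative effect in wild type. Besides Car2 they were the tetraspanin Tspan8 (-0.02 ± 0.12 in PRKO, -0.94 ± 0.12 in wild type), the coagulation factor receptor F3 (0.13 and -0.68), the ephrin Efnb2 (-0.03 and -0.75), Prxl2a (0.12 and -0.55, against -0.15 and 0.08 at its second probe set), Fam107b (0.03 and -0.37), the deoxyribonuclease Dnase1l1 (0.03 and -0.31) and the sulfotransferase Sult1d1 (0.21 ± 0.09 and -0.58 ± 0.09). Among the 25 genes the PRKO effect had an unadjusted p under 0.05 for 5, beside 4.60% of all probe sets, each with a sign opposite to that in wild type. These were Btg4 (-0.26 ± 0.07), Mylpf (-0.22 ± 0.05, against 0.01 at its second probe set), Exo1 (-0.19 ± 0.07), Ihh and Sult1d1. The choice of genes for a difference favours opposite signs, so the signs are given as a description.

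**Figure D2:**
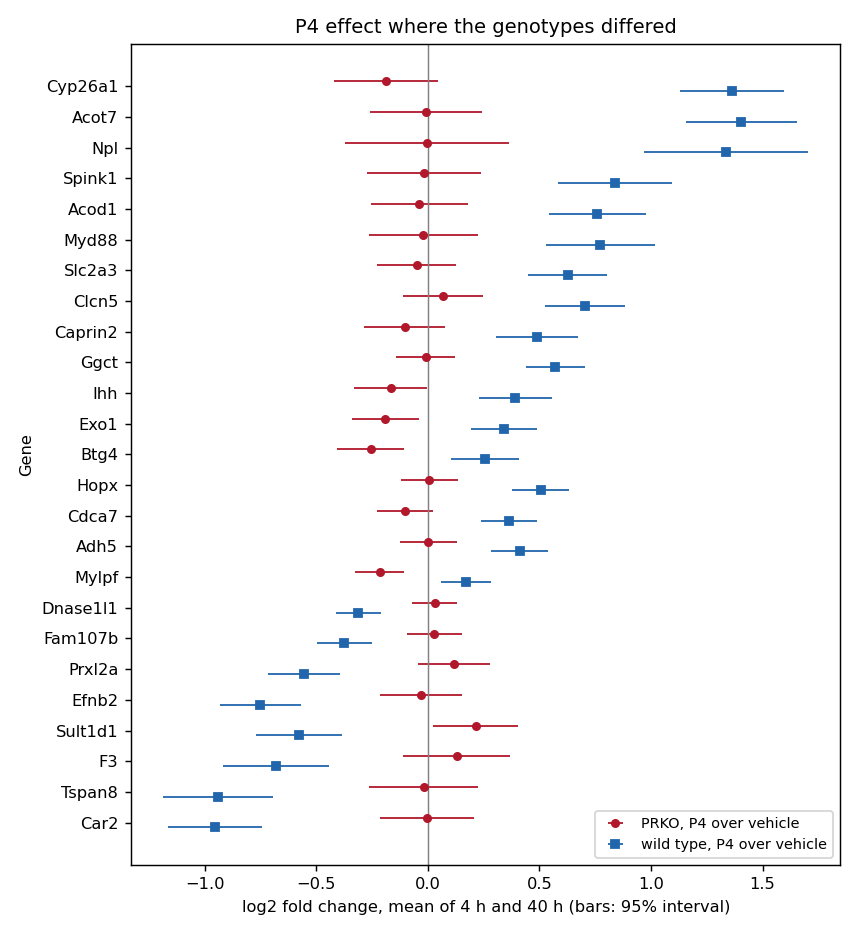
Pooled effect of P4 (log2 fold change over vehicle, mean of 4 h and 40 h) with its 95% interval for the 25 genes whose genotype difference was called, PRKO as red circles above wild type as blue squares, ordered by that difference. The PRKO estimates lie between -0.26 and 0.21 and the wild-type estimates reach 1.40 and -0.95.

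The probe sets called in wild type were then read in PRKO uteri, which share no arrays with the wild-type comparison. The fit gave both genotypes 1 shared spread per probe set. Wild-type calls therefore favour probe sets of small spread, which also lowers PRKO p values. The shares at an unadjusted p under 0.05 that follow, at 40 h too, are thus not independent of the choice. Of the 163 called in the pooled wild-type comparison, 111 had the same sign in PRKO uteri, 12 had an unadjusted p under 0.05 in the same direction (7.36%, beside 1.66% of all probe sets) and 4 in the opposite one. Their median PRKO effect in the wild-type direction was 0.04, where the median wild-type effect was 0.44 in size. For 155 of the 163 the wild-type value lay outside the 95% interval of the PRKO effect. At 4 h the 88 probe sets called in wild type (0.708%) had the same sign in PRKO uteri for 49 and an unadjusted p under 0.05 in the same direction for 1 (1.14%, near the 1.06% of all probe sets), with a median of 0.00.

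At 40 h the PRKO values leaned further in the wild-type direction. Of the 191 probe sets called in wild type at 40 h (1.54%), 149 had the same sign in PRKO uteri and 31 (16.2%) an unadjusted p under 0.05 in the same direction, beside 3.28% of all 12422 probe sets. Of the 89 that rose in wild type (a wild-type call rate of 0.716%), 25 (28.1%) were higher at that level in PRKO uteri, beside 1.90% of all probe sets. Of the 102 that fell in wild type (a wild-type call rate of 0.821%), 6 (5.88%) were lower in PRKO uteri, near the 4.79% of all probe sets. The median PRKO effect in the wild-type direction was 0.13, against 0.63 in size in wild type, and Pearson's r between the 2 genotypes was 0.58 across these probe sets, which are not independent of each other. None of the 191 was called in PRKO uteri, and for 179 the wild-type value lay outside the PRKO interval.

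**Figure D3:**
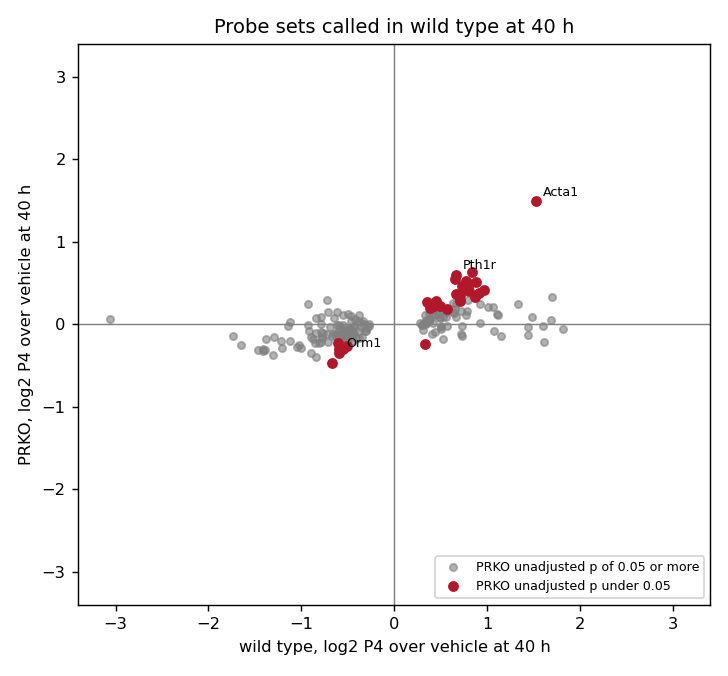
Log2 fold change of P4 over vehicle at 40 h in PRKO uteri (vertical axis) against wild-type uteri (horizontal axis) for the 191 probe sets called in wild type at 40 h; red points had an unadjusted p under 0.05 in PRKO uteri. Most points lie close to the horizontal line at 0, the red points gather at positive values, and Acta1 stands apart at 1.49 in PRKO and 1.52 in wild type.

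The highest of these 40 h values, chosen after they were seen, was that of Acta1, the skeletal muscle actin. Its signal was 2689, 2093 and 1181 on P4 arrays of PRKO uteri at 40 h, against 1157, 589 and 393 on vehicle arrays. The lowest P4 array and the highest vehicle array, replicates 3 and 1, nearly meet. At 4 h it read 946, 1242 and 816 on P4 arrays, against 737, 849 and 1300.3 on vehicle arrays, with full overlap. The effect was 1.49 ± 0.38 at 40 h and 0.08 at 4 h in PRKO uteri, and 1.52 at 40 h in wild type. Its adjusted p in PRKO uteri at 40 h was 0.703. Of 29 measured skeletal muscle markers it alone was higher at an unadjusted p under 0.05 at 40 h, and 4 were lower, beside 1.90% and 4.79% of all probe sets, with a list median of -0.12 at that time.

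Further genes that rose in wild type at 40 h were also chosen after their values were seen. Vcan, a matrix proteoglycan, read 666, 692 and 536 on P4 arrays of PRKO uteri at 40 h, against 476, 403 and 383 on vehicle arrays, an effect of 0.55 ± 0.15 (0.04 at 4 h). Pth1r, a receptor for parathyroid hormone and its related protein, read 689, 718 and 709 on P4 arrays, against 493, 438 and 432 on vehicle arrays, an effect of 0.60 ± 0.16. The collagen genes Col6a2, Col1a1 and Col3a1 gave 0.53 ± 0.19, 0.44 ± 0.14 and 0.38 ± 0.16 at 40 h and -0.08, 0.10 and 0.03 at 4 h. Col3a1 has 3 probe sets, and another of them, not called in wild type at 40 h, gave 0.61 at 40 h in PRKO uteri. The matrix protein Dpt gave 0.41. Other matrix genes that rose in wild type did not reach an unadjusted p of 0.05 in PRKO uteri at 40 h, with Col1a2 at 0.29, Sparc at 0.17, Col9a1 at 0.16, the collagen chaperone Serpinh1 at 0.12 and Col5a2 at 0.09. Outside the matrix, the KDEL receptor Kdelr3 gave 0.63 and the prostaglandin reductase Ptgr1 0.51. Among the 6 that fell in wild type, Orm1, an acute-phase protein, gave -0.34 ± 0.12 and Cdo1, a cysteine dioxygenase, -0.30 ± 0.13 in PRKO uteri. At 4 h Orm1 and Cdo1 had the opposite sign in PRKO uteri, 0.28 and 0.28. Their pooled effects were -0.03 and -0.01. None of the genes in this paragraph passed the test at 40 h, where adjusted p values were 0.703 or more.

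The neuronal growth protein gene Gap43 had the smallest adjusted p at 40 h (0.551). It read 126, 129 and 136 on P4 arrays of PRKO uteri at 40 h, against 91, 82 and 81 on vehicle arrays. At 4 h the order was turned round, with 66, 70.1 and 65 on P4 arrays, against 87, 75 and 96 on vehicle arrays. Its effects were -0.25 at 4 h and 0.48 ± 0.09 at 40 h, and it is the gene with the smallest adjusted p in the test of the time difference (0.206), which it did not pass.

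Markers of uterine cell types were set beside these values. The summed stromal level, the mean log2 signal of 26 measured stroma markers, was 10.61 to 10.66 on P4 arrays of PRKO uteri at 40 h, against 10.38 to 10.51 on vehicle arrays, with no overlap. At 4 h it was 10.35 to 10.50 on P4 arrays and 10.23 to 10.47 on vehicle arrays. The list's median effect was 0.13 pooled, the highest of the 28 lists, and 9 of its 26 members were higher at an unadjusted p under 0.05 at 40 h, against 1.90% of all probe sets, with 0 lower. Hoxa10, Hoxa11, Vcan and the collagens named above are on that list. The endothelial and stromal surface protein Cd34 gave 0.26 ± 0.08 pooled, against 0.13 ± 0.11 at its second probe set. The adipose level was 9.65 to 9.86 on P4 arrays of PRKO uteri at 40 h, against 9.88 to 10.03 on vehicle arrays, again with no overlap, and overlapped at 4 h. The defining adipocyte genes Adipoq and Lpl were bright in these samples and gave -0.30 and -0.29 at 40 h and 0.28 and 0.27 at 4 h. The smooth muscle level at 40 h was 11.02 to 11.10 on P4 arrays and 10.95 to 10.98 on vehicle arrays. The granulocyte level was 7.58 to 7.62 on P4 arrays of PRKO uteri at 40 h, against 7.69 to 7.70 on vehicle arrays, with 1 of 21 markers higher and 3 lower at an unadjusted p under 0.05, and the neural level was 8.41 to 8.45 on P4 arrays, against 8.47 to 8.51 on vehicle arrays. Both overlapped at 4 h. Levels on the P4 and vehicle arrays of PRKO uteri at 40 h were compared for all 28 lists. Without overlap, the P4 level lay above for 2 (stroma and smooth muscle) and below for 11, beside 5.88% and 16.4% of single probe sets. A list level averages several genes, so the share of single probe sets is not a like background. The median effect of all probe sets at 40 h was -0.04. At 4 h the level on P4 arrays lay above for 1 (receptor targets) and below for 1 (cell cycle genes). The cell cycle level also lay below at 40 h, and no other list separated the same way at both times. It was 8.440 to 8.469 on P4 arrays of PRKO uteri at 4 h, against 8.473 to 8.573 on vehicle arrays. At 40 h it was 8.432 to 8.441 on P4 arrays, against 8.470 to 8.497 on vehicle arrays. Of its 37 genes 3 were lower (3.49% of all probe sets) and 0 higher at a pooled unadjusted p under 0.05. The part of cell type proportions in the 40 h values was not tested.

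The epithelium level overlapped at both times, at 9.33 to 9.44 on P4 arrays and 9.29 to 9.36 on vehicle arrays of PRKO uteri at 40 h, and 0 of 23 epithelial markers reached an unadjusted p under 0.05 in the pooled comparison. Lymphocyte markers were the list with most low values, 7 of 24 at an unadjusted p under 0.05, beside 3.49% of all probe sets, among them the T cell receptor chains Cd3e (-0.17 ± 0.07) and Cd3g (-0.11 ± 0.04), the co-receptor Cd4 (-0.14 ± 0.06) and the B cell inhibitor Cd22 (-0.15 ± 0.05). The pan-leukocyte gene Ptprc gave -0.06 ± 0.08 the natural killer genes Ncr1 and Gzma -0.09 and -0.01, and the immunoglobulin heavy chain Ighm, the highest of the list, 0.28 ± 0.30. The lymphocyte level was 8.24 to 8.33 on P4 arrays at 40 h and 8.31 to 8.40 on vehicle arrays, which overlap.

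Routes for P4 that do not use its nuclear receptor were read through lists of their genes. Of the measured receptors, which are candidates to bind P4 or related steroids and their partners, none was called. Pgrmc1 gave 0.10 ± 0.08, Pgrmc2 0.15 ± 0.08 (-0.05 at its second probe set), the membrane progestin receptor Paqr7 -0.03 ± 0.06, the glucocorticoid receptor Nr3c1 0.27 ± 0.21, and the xenobiotic receptors Nr1i2 and Nr1i3 -0.15 ± 0.08 and -0.15 ± 0.06, with 0.02 and -0.06 at the other 2 probe sets of Nr1i3. The oestrogen receptor Esr1 gave 0.20 ± 0.11 at its brightest probe set and 0.00 or -0.03 at its other probe sets. The 8 measured GABA-A receptor subunits had a median of -0.08, and Gabra2 gave -0.20 ± 0.08.

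Genes that glucocorticoid, mineralocorticoid and progesterone receptors can all induce were read next. Of 32 listed 27 were measured, none was called, 0 reached an unadjusted p under 0.05 on the higher side and 1 on the lower, the transglutaminase Tgm2 (-0.19 ± 0.07). The immunophilin Fkbp5 gave 0.08 ± 0.14, Tsc22d3, also called GILZ, -0.01 ± 0.06, the kinase Sgk1 -0.12 ± 0.13, the clock gene Per1 -0.07 ± 0.11 and the metallothioneins Mt1 and Mt2 0.01 and 0.00. The 2 times differed in sign for Fkbp5 (0.33 at 4 h and -0.17 at 40 h) and for the Krüppel-like factor Klf9 (0.34 and -0.28), neither past the test of the time difference. The list median was -0.03 pooled in PRKO uteri, 0.04 at 4 h and -0.15 at 40 h, where the median of all probe sets was -0.04. The level of the list, the mean log2 signal of its members, was 9.44 to 9.64 on P4 arrays of PRKO uteri at 40 h, against 9.68 to 9.74 on vehicle arrays, without overlap, and overlapped at 4 h. For 25 of 27 members the 95% interval of the pooled effect lay within 0.5 of 0.

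Steroid and drug handling genes held no called member. Of 23 measured genes of steroid synthesis and breakdown 2 were lower at an unadjusted p under 0.05, the cholesterol transporter Star (-0.20 ± 0.07, against -0.07 at its second probe set) and the aldo-keto reductase Akr1c13 (-0.15 ± 0.05). Akr1c13 read 711, 758 and 767 on P4 arrays at 4 h, against 797, 874 and 799 on vehicle arrays, and 725, 709 and 762 on P4 arrays at 40 h, against 834, 803 and 831 on vehicle arrays. It separates at both times in PRKO uteri, and gave -0.16 ± 0.05 in wild type. The 32 measured genes of the xenobiotic response had a median of -0.04 and 1 low value, Cyp2b9 (-0.12 ± 0.06). At 40 h the list medians were -0.05 for steroid synthesis and breakdown and -0.10 for the xenobiotic response. The level of the steroid list on P4 arrays of PRKO uteri at 40 h was 8.30 to 8.33, against 8.34 to 8.40 on vehicle arrays, and that of the xenobiotic list was 8.61 to 8.64 on P4 arrays, against 8.69 to 8.72 on vehicle arrays. Neither overlapped at 40 h, and both overlapped at 4 h. The median effect of all probe sets at 40 h was -0.04, and it was lower among dim probe sets, as given below. The 20 genes of cholesterol synthesis had a median of 0.06.

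Over all 28 lists, 553 distinct measured genes, 0 members were called in PRKO uteri, and the list medians ran from -0.08 to 0.13, with 26 of 28 within 0.1 of 0. In wild type the medians of the receptor targets (0.23), the adipose markers (-0.42) and the epithelial markers (-0.20) lay further out, where the PRKO medians were 0.01, -0.02 and -0.02.

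**Figure D4:**
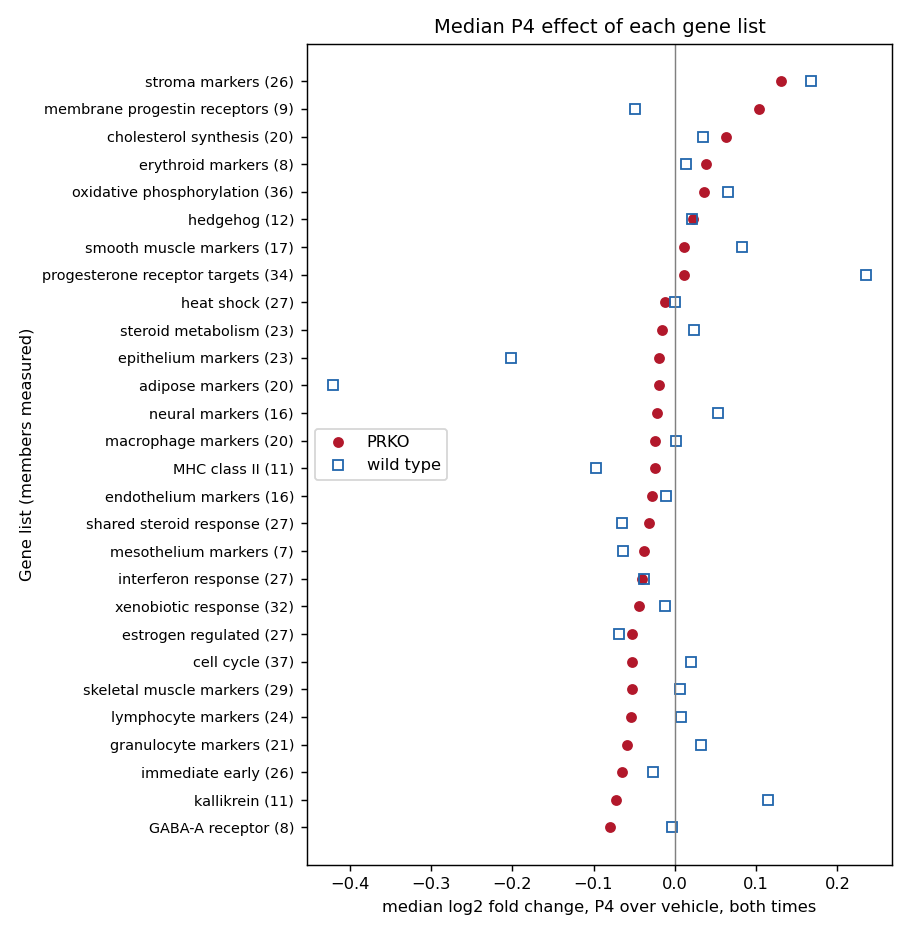
Median pooled effect of P4 (log2 fold change over vehicle) of the measured members of 28 gene lists, with red circles for PRKO and open blue squares for wild type; the number of measured members is in brackets. PRKO medians lie between -0.08 and 0.13, and the receptor targets, adipose and epithelial lists are displaced in wild type.

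The excess of low over high values in PRKO uteri depended on signal. When the probe sets were divided into 4 equal bins of mean signal, the median pooled effect was -0.04, -0.03, -0.01 and 0.01 from the dimmest to the brightest. The counts at an unadjusted p under 0.05 were 17 higher and 155 lower in the dimmest bin and 50 higher and 46 lower in the brightest. With quantile normalization the medians were all between -0.007 and -0.005, and the counts 47 higher and 50 lower in the dimmest bin and 42 higher and 68 lower in the brightest. Over all probe sets that setting gave 193 higher and 288 lower, against 138 and 434 with the scaling used here. At 40 h alone, the median effect with the scaling used here was -0.073, -0.075, -0.026 and 0.016 from the dimmest bin to the brightest. The list levels above use that scaling. Of the lowest genes named above, Pon1, Dtl, Cdc34, Theg and Igfbp1 lie in the 2 dimmer bins, which end at a signal of 331.8, as do the lymphocyte markers Cd3g and Cd22.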

How the data were processed

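RNA of uteri was measured on Affymetrix mouse arrays, 24 in all, 12 of them PRKO. The authors deposited a linear signal intensity per probe set and array. MAS5 is named in the submitters' processing notes with neither version nor settings, and how arrays were normalized to each other is not stated. The deposited array medians lay between 323.2 and 342.6, and no detection calls were used.

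Of 12488 probe sets 66 controls were left out and 12422 tested, dim ones included. Each array was scaled to a 2% trimmed mean of 500, 32 was added and log2 taken. Gene names came from the platform annotation (10833 with 1 gene, 396 with several, 1193 with none), and 10817 of the single genes matched the RefSeq table of GRCm38.p6. Group means of all 24 arrays were fitted with limma 3.58.1 in R 4.3.3 (moderated two-sided tests, intensity trend, 16 residual and 4.98 prior degrees of freedom). The pooled effect is the mean of the 4 h and 40 h effects. P values were adjusted by Benjamini-Hochberg over all 12422 probe sets, with a threshold of 0.05. For a gene with several probe sets, lists use that of highest mean signal. The number of arrays limits the precision.

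Genes were named by rule. The rule takes up to 10 called genes in each direction, and, where none was called, the 10 largest pooled effects in each direction with all 3 P4 arrays above or below all 3 vehicle arrays at both times and a mean PRKO signal of at least 100. Pgr and up to 4 members per list follow. Genotype-difference and 40 h genes were added after their values were seen. The members and gene lists were chosen with earlier results of these data known. Replicate numbers carry no stated pairing, and same-numbered PRKO arrays correlated at -0.12 to 0.63, not all above 0.1. Same-numbered wild-type arrays correlated at 0.11 to 0.52 at 4 h, all above 0.1, and at 0.07 to 0.14 at 40 h, not all above 0.1, so no block was used in these fits over both times. The fit was tested on simulated data, 20 runs of 12422 probe sets of which 200 were changed, where 4.53% of pooled calls were false. Noise in these runs had no correlation between probe sets and the same spread on every array.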

Additional observations from a re-analysis of the deposited data

Results flagged for a closer look

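The effect of P4 pooled over both times differed between the genotypes by the test of the difference itself (PRKO minus wild type, log2, limma) for 25 single-gene probe sets. The difference was negative for Cyp26a1 (-1.55), Acot7 (-1.41), Npl (-1.34), Spink1 (-0.86), Acod1 (-0.80), Myd88 (-0.79), Slc2a3 (-0.68), Clcn5 (-0.64), Caprin2 (-0.59), Ggct (-0.58), Ihh (-0.56), Exo1 (-0.53), Btg4 (-0.51), Hopx (-0.50), Cdca7 (-0.47), Adh5 (-0.41) and Mylpf (-0.39). It was positive for Car2 (0.95), Tspan8 (0.92), F3 (0.81), Sult1d1 (0.79), Efnb2 (0.72), Prxl2a (0.67), Fam107b (0.40) and Dnase1l1 (0.34). Over 29 alternatives 7 of the 25 kept their call in each one where they were tested, namely Acot7, Car2, Cyp26a1, Efnb2, Ggct, Prxl2a and Sult1d1. The other 18 lost it in at least 1, and none changed sign. Mylpf (34 to 66 on the PRKO arrays) and Exo1 (64 to 107) are dim, and second probe sets did not all repeat the values. For Mylpf the second gave 0.01 in PRKO and -0.04 in wild-type uteri, without the difference, and for Prxl2a it gave -0.15 and 0.08, a difference of the opposite sign. For Adh5 it gave 0.10 and 0.50, for Acod1 -0.03 and 0.30, for Slc2a3 0.03 and 0.28, all with the sign of the called difference, and for Clcn5, where the second probe set is dim, -0.06 and 0.01.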

How the results depend on the processing

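The count of 0 called probe sets for the pooled effect in PRKO uteri stood under each alternative but one. With a weight for every array, 293 were called, 79 higher and 214 lower (3066 at an unadjusted p under 0.05). Those weights ran from 0.243 to 7.24, with replicate 2 of P4 at 40 h the heaviest. The call of 13 of the 20 named genes appeared there alone, and weights set per time gave 0. The cause was not tested. All 20 kept their sign in the 27 alternatives. They were chosen for arrays separated at both times, so leaving out 1 array could not turn a sign. At 40 h the 6 PRKO arrays fitted alone gave 1 call, a Col3a1 probe set (0.61), an alternative chosen after seeing the data. At 4 h, leaving out each replicate in turn gave 0 to 2 calls, the 2 being probe sets of Tob1 and Kif5a without vehicle replicate 1. The effect present at both times and the time difference stayed at 0 in every alternative run. The genotype difference, 28 in the fit used, gave 17 with weights per time, 17 when the pair of wild-type arrays with a high Gapdh ratio was left out, 52 with the replicate block and 8 to 54 without 1 replicate. For PRKO it was 12 without P4 replicate 3 and 18 without each vehicle replicate in turn at 4 h, and 12 and 8 without P4 replicates 1 and 2 and 17, 9 and 11 without vehicle replicates 1, 2 and 3 at 40 h. For wild type it was 13, 14 and 54 without P4 replicates 1, 2 and 3 and 13 and 53 without vehicle replicates 1 and 2 at 4 h, and 18 without P4 replicate 2 and 14 and 12 without vehicle replicates 2 and 3 at 40 h. The wild-type pooled count, 163, was 346 with the replicate block and 99 to 243 without 1 replicate, with the low values those without P4 replicate 1 (99) or 2 (102) at 4 h or vehicle replicate 2 (105) at 40 h. The replicate block left PRKO at 0 (885 at an unadjusted p under 0.05) and gave 128 against 88 in wild type at 4 h and 386 against 191 at 40 h. Each wild-type P4 array, and each PRKO P4 array at 40 h, correlated best with the vehicle array of its own number. In PRKO uteri at 4 h only replicate 1 did. This is a hint from the data and not from the design. Other counts stayed within 1.5 times. Dim signal limits what could be seen, since the offset compresses changes of dim genes, and the spread was wider at 4 h (median SD 0.111 to 0.147) than at 40 h (0.0767 to 0.0974).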
